A study of Mus musculus with 6 samples.

Results

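The genes described here build the molybdenum cofactor or encode the enzymes that use it. They were chosen by name from this pathway, as the rows of the deposited count table that match Mocs1, Mocs2, Mocs3, Gphn, Mocos, Xdh, Suox, Nfs1 and Aox1. All 9 were found among the 55401 genes of the table. The libraries came from RAW264.7 cells, a mouse macrophage-like tumour line labelled wild type throughout, which were given molybdenum disulfide (MoS2, a layered metal sulfide) at 6.25 µg/ml or phosphate-buffered saline (PBS). Each of the 2 groups had 3 libraries. How long the cells were exposed is not given in the sources used. The labels do not say that the 3 replicates of a group grew apart, and a p-value then reflects no more than library-to-library spread, which may be technical.

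Animal cells make the molybdenum cofactor from GTP. MOCS1 forms a cyclic pyranopterin in the mitochondrion, molybdopterin synthase (both subunits are encoded by Mocs2) adds sulfur to it, and gephyrin, the product of Gphn, inserts molybdate. The sulfur comes from cysteine through the desulfurase NFS1 and reaches molybdopterin synthase through MOCS3. Sulfite oxidase (SUOX), xanthine dehydrogenase (XDH) and the aldehyde oxidases carry the finished cofactor, which MOCOS sulfurates once more for XDH and the aldehyde oxidases. In macrophages XDH is known as a source of urate and, in its oxidase form, of superoxide and hydrogen peroxide.

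Total counts per library were 15767618 to 18412762, and the 9 genes together held 2177 to 2563 counts in MoS2 libraries and 4085 to 4406 in PBS libraries. The most abundant 10 genes took 18.9 to 19.6% of the counts with MoS2 and 5.25 to 5.64% with PBS. The TMM factors that correct for such composition were 0.743 to 0.783 with MoS2 and 1.31 with PBS, and scaling by library totals alone shifts the log2 fold changes by a median of -0.77. Of 12972 genes tested, 10466 were called, which is 80.7% (edgeR quasi-likelihood test, Benjamini-Hochberg adjusted p under 0.05), with 38.3% called higher and 42.4% called lower in MoS2-treated cells. Of the 10 macrophage markers 9 were tested, and 2 rose and 4 fell (2 and 7 if scaled by library totals). Cd68 and Itgam rose, while Lyz2, Csf1r, Spi1 and Fcgr1 fell. The summed level of the 10 markers was 5196 to 5450 CPM with MoS2 (counts scaled to library size, TMM factors included) and 7657 to 7837 CPM with PBS. Lyz2 alone had a mean of 1976 CPM with MoS2 and 3624 CPM with PBS, and Mertk had 2 counts in each group. Summed markers of hepatocytes, neurons, and fibroblasts or epithelia did not exceed 1.26 CPM in any library, and 4 of 6, 2 of 6 and 2 of 8 of them had no count. The part of these differences in the results below was not tested. In bulk libraries a loss of cells and a loss of RNA per cell cannot be told apart.

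Against that background, 8 of the 9 genes were tested and all 8 were called. Mocs2, Gphn and Mocos rose with MoS2, Gphn and Mocos with TMM but not with library totals, while Mocs3, Suox, Xdh, Mocs1 and Nfs1 fell. Scaled by library totals, 1 member was called higher and 6 lower, where 18% of all tested genes were called higher and 67.7% lower. Called genes are most of the table here, so the size of the change separates the members more than the call does. At a fold of at least 2, 1 of the 8 rose and 3 fell, and 43.2% of all tested genes were called at that size in either direction. The median log2 fold change was -0.26 over the 8 members and -0.08 over all tested genes. The MoS2 and PBS libraries were separate for all 8, as they were for 81.9% of the tested genes.

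**Figure D1:**
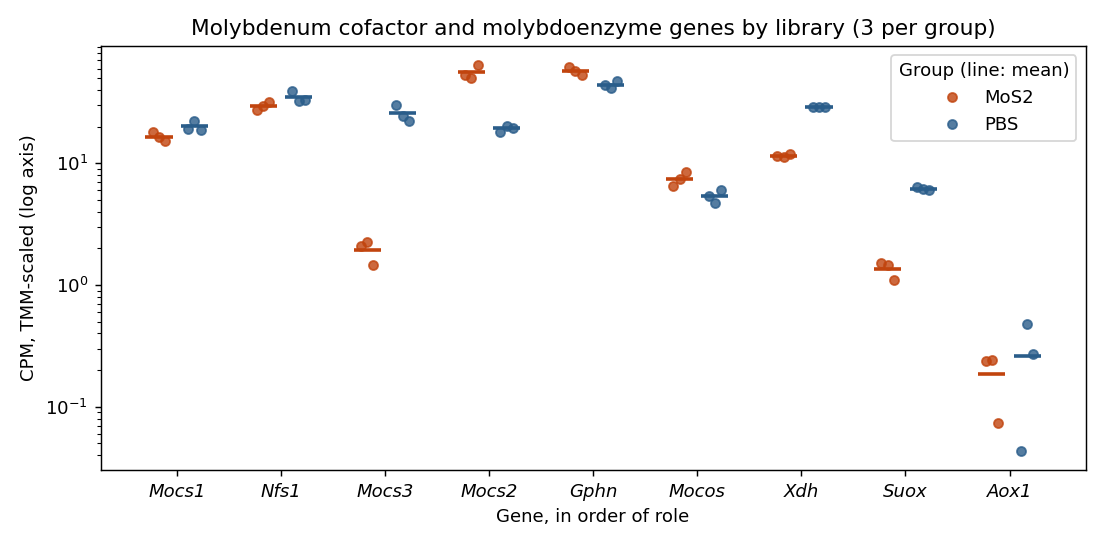
TMM-scaled CPM on a log axis for each library of the 9 genes, MoS2 left of PBS, with a line at the mean of 3 libraries. Mocs3, Xdh and Suox lie clearly lower with MoS2, Mocs2 clearly higher, and the groups overlap only for Aox1.

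At the start of the pathway, Mocs1, which converts GTP to the pyranopterin precursor, and Nfs1, the cysteine desulfurase, lay slightly lower in MoS2-treated cells. Mocs1 (ENSMUSG00000064120.14, GRCm38 chromosome 17, 49428362 to 49455435) had 18.1, 16.5 and 15.2 CPM in the MoS2 libraries and 19.3, 22.3 and 18.9 CPM in the PBS libraries. The gap between the nearest libraries of the groups was narrow, and the log2 fold change was -0.28 ± 0.11 (SE, edgeR adjusted p = 0.03). Nfs1 (ENSMUSG00000027618.17, GRCm38 chromosome 2, 156123639 to 156144186) had 27.5, 29.7 and 31.9 CPM with MoS2 and 39.2, 32.5 and 33.1 CPM with PBS. Here too the groups only just failed to overlap, at -0.24 ± 0.10 on the log2 scale (edgeR adjusted p = 0.038). Both calls were lost with RLE factors (edgeR adjusted p = 0.06 for Mocs1 and 0.082 for Nfs1) and with DESeq2 (adjusted p = 0.097 and 0.12). Single libraries also decided them: Mocs1 lost its call without MoS2 replicate 2 or 3 or PBS replicate 2, with log2 fold changes of -0.27, -0.22 and -0.21, and Nfs1 without MoS2 replicate 1 or 2 or PBS replicate 1, with -0.18, -0.23 and -0.15. Nfs1 shares 148 of its 3612 exon bases with Romo1 on the other strand, a mitochondrial membrane protein gene that rose by 1.48 ± 0.20 (0.82 after removal of length and GC trends), and since the strand setting of the counting is not given, reads on the shared bases cannot be assigned with certainty. It also shares 256 bases with Gm28036 on its own strand, which had no count, and Gm20540, which starts 878 bases from Mocs1 on the other strand, had 4 counts, all with PBS.

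Mocs3 had the largest change of the 8. Its protein activates and sulfurates the small subunit of molybdopterin synthase, and also the ubiquitin-like protein URM1, which carries sulfur to transfer RNA. Mocs3 (ENSMUSG00000074576.4, GRCm38 chromosome 2, 168230622 to 168232594) had 2.08, 2.27 and 1.46 CPM in the MoS2 libraries, from 26, 28 and 20 counts. In the PBS libraries it had 30.1, 24.4 and 22.5 CPM, from 695, 562 and 500 counts. Every MoS2 library was thus far below every PBS library. The difference was -3.73 ± 0.18 on the log2 scale (edgeR adjusted p = 3.1e-10), at rank 238 from the lowest among the 12972 tested genes. In GENCODE M21 the gene has a single transcript of 1 exon.

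The start of Mocs3 lies 31 bases from that of Dpm1, a subunit gene of dolichol phosphate mannose synthase, which runs the other way from GRCm38 position 168230591. The window around the Mocs3 start is therefore also the Dpm1 promoter, and it is shown to place both starts (RefSeq, GRCm38.p6, chr2:168230372-168230671, plus strand, with capitals from the Dpm1 start to the Mocs3 start).
Mocs3 promoter: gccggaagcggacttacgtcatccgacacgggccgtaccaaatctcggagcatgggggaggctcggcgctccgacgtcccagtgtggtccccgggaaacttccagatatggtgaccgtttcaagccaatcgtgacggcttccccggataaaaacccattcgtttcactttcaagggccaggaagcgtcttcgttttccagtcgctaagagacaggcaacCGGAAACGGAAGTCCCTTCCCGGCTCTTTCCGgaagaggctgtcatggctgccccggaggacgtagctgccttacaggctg
The deposited exons of these neighbours share no base, and a further neighbour, Gm20716, had 1 count in all. Dpm1 had 143, 184 and 155 counts in the MoS2 libraries and 203, 179 and 222 counts in the PBS libraries, and its log2 fold change was 0.50 ± 0.15 with TMM (edgeR adjusted p = 0.0069) and -0.27 with library totals, where it was not called (edgeR adjusted p = 0.12). The ratio of Mocs3 to Dpm1 counts does not depend on scaling. It was 0.154 ± 0.0265 with MoS2 and 2.94 ± 0.611 with PBS (SD, n = 3 libraries each). The exact two-sided permutation p was 0.1, the smallest that 3 against 3 libraries can give. This pair was chosen after the values were seen, so that p-value is no support.

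Mocs2, which encodes molybdopterin synthase, was the member that rose most. Mocs2 (ENSMUSG00000015536.14, GRCm38 chromosome 13, 114818236 to 114832275) had 670, 617 and 874 counts in the MoS2 libraries and 415, 470 and 438 counts in the PBS libraries. After scaling these were 55.8 ± 7.24 CPM with MoS2 and 19.4 ± 1.24 CPM with PBS (SD, n = 3 each). All MoS2 libraries stood well above all PBS libraries, and the log2 fold change was 1.53 ± 0.10 (edgeR adjusted p = 6e-09). With library totals it was 0.75 and was still called (edgeR adjusted p = 5.5e-06). No other member was called higher under both scalings.

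Both subunits of the synthase come from the Mocs2 locus through overlapping reading frames, of 267 bases for the small subunit and 570 bases for the large subunit with their stop codons. The overlap of 80 bases lies within 1 exon and is read in a frame shifted by 1 base. It is shown because a read there belongs to both frames, so counts per gene cannot separate the subunits (GENCODE M21 transcript, chr13:114820849-114820928, plus strand, with the start codon of the large frame and the stop codon of the small frame in capitals).
Mocs2 frames: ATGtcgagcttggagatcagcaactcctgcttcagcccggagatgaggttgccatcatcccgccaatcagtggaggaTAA
Of the 13 Mocs2 transcripts with an annotated coding sequence, 7 end the small frame at this stop and 6 begin the large frame at this start.

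The promoter of Mocs2 is shown as that of the member that rose most (RefSeq, GRCm38.p6, chr13:114817987-114818286, plus strand, with capitals for the NRF1 and AP-1 motif matches).
Mocs2 promoter: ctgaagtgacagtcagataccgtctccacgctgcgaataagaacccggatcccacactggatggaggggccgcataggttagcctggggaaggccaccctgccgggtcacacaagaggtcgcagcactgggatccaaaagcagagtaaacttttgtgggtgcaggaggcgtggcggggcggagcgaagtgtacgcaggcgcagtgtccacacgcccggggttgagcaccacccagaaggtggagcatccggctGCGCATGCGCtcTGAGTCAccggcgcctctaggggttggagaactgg
Motifs were searched on both strands in the 7 members with an entry and in all 32851 promoters of the same length. The NRF1 motif, the longer run of capitals above, occurred in Mocs2 alone of the 7, and in 0.971% of all promoters. An AP-1 motif, TGANTCA, was found in Mocs2 and Aox1 and in 7.81% of all promoters. The antioxidant response motif bound by NRF2, TGACNNNGC, occurred in Mocs2 and Nfs1 and in 12.4% of all promoters. Metal response motifs were searched as TGCACNC and TGCGCNC, each with 1 match, in Mocs2, against 12.6% and 15.4% of all promoters, and the match to TGCGCNC overlaps the NRF1 match. None of these letters stood in the Mocs3 window, nor did the cAMP response motif TGACGTCA, which 1.79% of promoters hold. Such matches describe letters and show no binding.

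Gphn and Mocos, which act on the assembled pterin, lay a little higher in MoS2-treated cells. Gephyrin, besides inserting molybdate, anchors glycine and GABA receptors at inhibitory synapses. Gphn (ENSMUSG00000047454.12, GRCm38 chromosome 12, 78226379 to 78684772) had 61.9, 57.7 and 53.5 CPM with MoS2 and 43.7, 41.6 and 47.8 CPM with PBS. Its groups did not overlap, and its log2 fold change was 0.38 ± 0.08 with TMM (edgeR adjusted p = 0.00072) but -0.39 with library totals (edgeR adjusted p = 0.00088). Mocos, the cofactor sulfurase (ENSMUSG00000039616.10, GRCm38 chromosome 18, 24653691 to 24701575), had 6.47, 7.38 and 8.41 CPM with MoS2 and 5.38, 4.69 and 6.07 CPM with PBS. The nearest libraries of the groups were close together. The call was lost without MoS2 replicate 3 or PBS replicate 2 (0.37 for either), and the log2 fold change was 0.47 ± 0.17 with TMM (edgeR adjusted p = 0.021) but -0.31 with library totals, where it was not called (edgeR adjusted p = 0.099). Gphn shares 147 of its 3749 exon bases with the noncoding gene Gm48226 on the other strand, which had a log2 fold change of -0.46 ± 0.19, not called with RLE factors (-0.42), with DESeq2 (-0.42), without MoS2 replicate 2 (-0.29) or without PBS replicate 2 (-0.37).

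Among the molybdoenzymes, both Suox and Xdh fell. Suox, whose product oxidizes sulfite to sulfate in the mitochondrion (ENSMUSG00000049858.8, GRCm38 chromosome 10, 128669894 to 128674073), had 19, 18 and 15 counts with MoS2 and 148, 142 and 134 counts with PBS. That is 1.52, 1.46 and 1.10 CPM with MoS2 against 6.42, 6.17 and 6.02 CPM with PBS, and the log2 fold change was -2.19 ± 0.22 (edgeR adjusted p = 4.3e-07). The libraries within each group were close to each other and the groups were well apart. Xdh, the enzyme that turns hypoxanthine and xanthine into urate (ENSMUSG00000024066.9, GRCm38 chromosome 17, 73883895 to 73950196), had 11.4, 11.3 and 11.8 CPM with MoS2 and 28.8, 29.1 and 29.3 CPM with PBS. Its spread was the smallest of the 8 relative to its level, and its log2 fold change was -1.33 ± 0.09 (edgeR adjusted p = 1.3e-08). Mocs3, Suox and Xdh are the 3 members that fell by more than 2-fold, a size and direction at which 23.7% of all tested genes were called.

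The promoter of Suox is shown as that of the molybdoenzyme with the larger fall (RefSeq, GRCm38.p6, chr10:128673869-128674168, minus strand, with capitals for the GC box GGGCGG on either strand).
Suox promoter: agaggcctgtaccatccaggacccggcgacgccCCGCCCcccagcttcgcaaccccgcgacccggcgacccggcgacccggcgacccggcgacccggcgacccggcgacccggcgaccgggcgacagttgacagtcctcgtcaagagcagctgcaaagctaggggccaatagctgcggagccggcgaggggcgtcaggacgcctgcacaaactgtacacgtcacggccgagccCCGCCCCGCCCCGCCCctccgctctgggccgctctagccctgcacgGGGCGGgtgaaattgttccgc
It holds 5 GC boxes, 3 of them overlapping in 1 run of capitals, and its GC content is 73.3%, against 59.0% in the Mocs3 window and 62.3% in the Mocs2 window. In the count table Suox starts at 128674073, so most of this window lies within the deposited gene. Only the GC box that comes first in the window lies upstream of that start. The other GC boxes, the run of 3 among them, and the match to CCAAT lie within the deposited gene. The Mocs3 and Mocs2 windows lie mostly upstream of their genes, so the 3 windows are not placed alike. Of the 7 members with an entry, 5 hold a GC box, as do 35.7% of all promoters, and CCAAT occurred in 4 of the 7, Mocs3 and Suox among them, and in 37.4% of all promoters.

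Aox1, the aldehyde oxidase best known from liver, was near the limit of detection. It had 3, 3 and 1 counts in the MoS2 libraries and 1, 11 and 6 counts in the PBS libraries, and it did not pass the low-count filter. The groups overlapped, and the ratio of the summed, scaled counts was 0.690 with an exact 95% interval of 0.244 to 1.73, which covers counting error only. No difference was thus detected at this depth, and the interval includes both a fall and a rise. Its paralogue Aox2, from the same cluster of aldehyde oxidase genes (GRCm38 chromosome 1, 58278326 to 58380259), had 27, 45 and 45 counts with MoS2 and 11, 5 and 4 counts with PBS. All MoS2 libraries were above all PBS libraries. Aox2 passed the filter through the MoS2 group, where it is high, so no test is given for it. The other paralogues, Aox3 and Aox4, had 1 and 0 counts in all libraries.

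**Figure D2:**
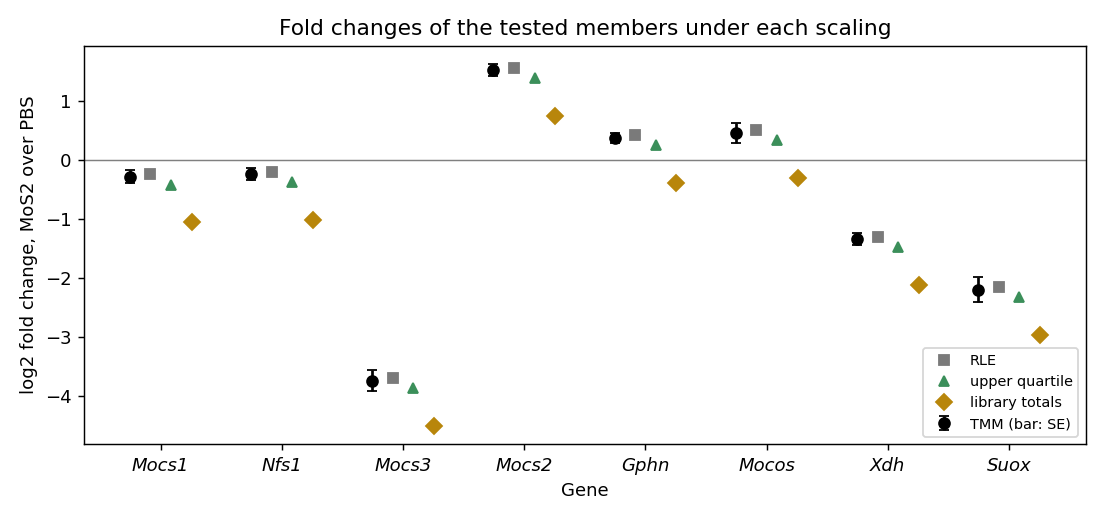
Log2 fold change of MoS2 over PBS for the 8 tested members under TMM (with SE), RLE and upper-quartile factors and library totals. Library totals lower all 8 values and put Gphn and Mocos below 0, while Mocs2 stays above 0 and Mocs3, Suox and Xdh below -1 under all 4 scalings.

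Since the members are parts of 1 pathway, their make-up was also compared as shares of the reads on the 9 genes, which need no scaling between libraries. Mocs2 took 30.6 ± 3.09% of these reads in MoS2 libraries and 10.5 ± 0.939% in PBS libraries (SD, n = 3 each). For Mocs3 the share was 1.07 ± 0.260% with MoS2 and 13.8 ± 1.80% with PBS, and for Xdh 6.32 ± 0.0675% with MoS2 and 15.7 ± 0.507% with PBS. Gphn held 31.7 ± 2.79% with MoS2 and 23.9 ± 1.81% with PBS. The shares of Nfs1 (16.3 ± 1.09% with MoS2 and 18.8 ± 1.48% with PBS) and Mocs1 (9.12 ± 0.920% with MoS2 and 10.9 ± 1.20% with PBS) differed least in proportion among the tested members. Reads on all 9 genes made up 0.0138 to 0.0140% of all counts with MoS2 and 0.0237 to 0.0249% with PBS, while their summed TMM-scaled level overlapped between the groups, at 176 to 187 CPM with MoS2 and 182 to 191 CPM with PBS.

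**Figure D3:**
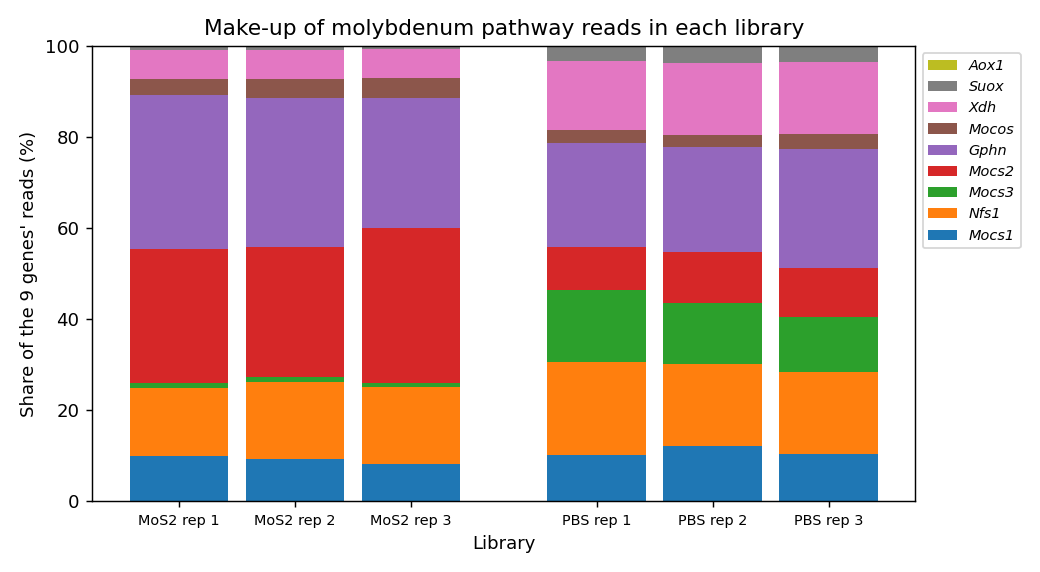
Share of each gene among the reads of the 9 genes, as stacked bars for the 3 MoS2 libraries on the left and the 3 PBS libraries on the right. Mocs2 widens to about 30.6% with MoS2 while Mocs3 shrinks to about 1.07%, and the bars of a group look alike.

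Levels per exon length, as CPM divided by the exon length in kilobases (RPKM), put the members in a different order in each group. With MoS2, Gphn was highest at 15.4 ± 1.11 RPKM, followed by Nfs1 at 8.22 ± 0.612, Mocs2 at 6.16 ± 0.800, Mocs1 at 5.34 ± 0.470, Mocos at 2.30 ± 0.301, Xdh at 1.25 ± 0.0330, Mocs3 at 0.981 ± 0.213 and Suox at 0.544 ± 0.0911 RPKM. Only Mocs2 and Mocs1 overlapped among neighbours in that order. With PBS, Mocs3 (13.01 ± 2.02 RPKM) and Gphn (11.8 ± 0.840 RPKM) overlapped at the top. They were followed by Nfs1 at 9.68 ± 1.03, Mocs1 at 6.48 ± 0.592, Xdh at 3.17 ± 0.0228, Suox at 2.48 ± 0.0802, Mocs2 at 2.14 ± 0.137 and Mocos at 1.67 ± 0.213 RPKM, without overlap between neighbours. Aox1 was last in both groups, at 0.0213 ± 0.0112 RPKM with MoS2 and 0.0303 ± 0.0250 RPKM with PBS. The exon lengths in the table add up all annotated isoforms, as for Mocs2 (9054 bases) and Xdh (9175 bases). Levels per length, and the order of the members by them, are therefore uncertain.

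Ratios between genes were read within each library, for 10 pairs chosen after the values were seen. Some pairs work together, and others are neighbours, share exon bases or are separate enzymes. The groups were separate for all 10. With the pairs chosen so, the exact two-sided permutation p of 0.1, the smallest possible here, followed from the choice and is no support. Mocs3 over Mocs2, the activating enzyme over its substrate's gene, was 0.0388, 0.0454 and 0.0229 with MoS2 and 1.67, 1.20 and 1.14 with PBS. Mocs1 over Mocs2, the gene of the preceding step over the next, was 0.302 ± 0.0556 with MoS2 and 1.04 ± 0.0703 with PBS. For Mocs3 over Urm1, its other sulfur acceptor, the ratio was 0.0596 ± 0.0135 with MoS2 and 1.03 ± 0.0689 with PBS. Within the enzymes, Suox over Xdh was 0.118 ± 0.0223 with MoS2 and 0.214 ± 0.00843 with PBS. Mocos over Xdh, the sulfurase over its client, differed the other way, with 0.644 ± 0.0724 with MoS2 against 0.185 ± 0.0230 with PBS. Aox2 over Xdh was 0.263 ± 0.0686 with MoS2 and 0.0101 ± 0.00566 with PBS. For genes that share exon bases, Nfs1 over Romo1 was 0.732 ± 0.203 with MoS2 and 2.44 ± 0.734 with PBS, and Gphn over Gm48226 was 12.03 ± 3.12 with MoS2 and 6.55 ± 1.21 with PBS.

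**Figure D4:**
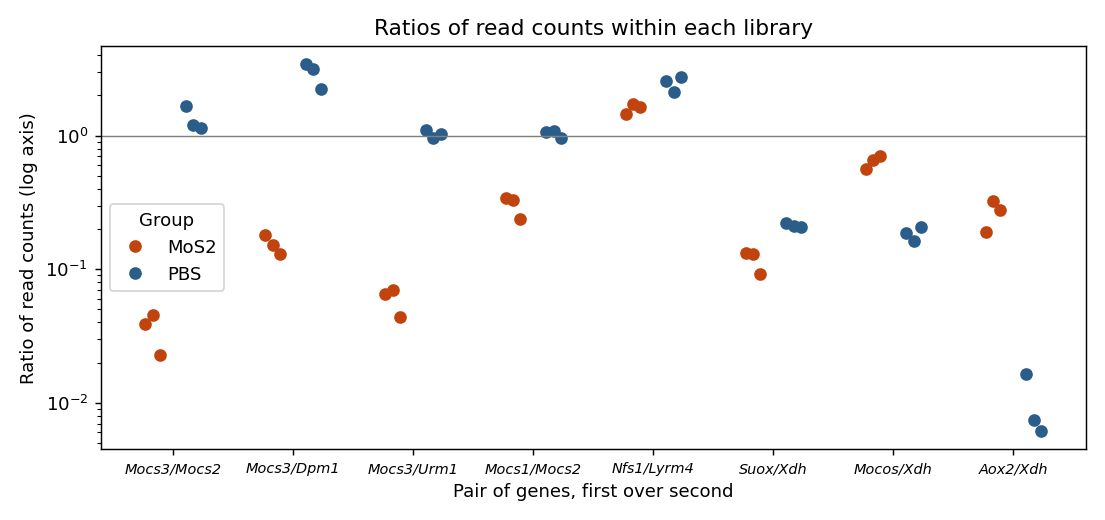
Ratio of read counts of the first gene over the second within each library on a log axis, for 8 pairs, with MoS2 left of PBS and a line at equal counts. The ratios of Mocs3 to Mocs2, Dpm1 and Urm1 lie lowest with MoS2 relative to PBS, and no pair shows overlapping groups. The pairs were chosen after the values were seen.

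Other molybdoenzymes and the supply of molybdate were examined through 8 further genes, of which 5 were tested. TMM factors gave 3 higher and 1 lower, where 38.3% and 42.4% of all tested genes were called so. Library totals gave 1 higher and 4 lower, against 18% and 67.7% of all tested genes. Aox2 is counted as higher under both scalings, and is the 1 with library totals. Its call is no support, since it passed the filter through the MoS2 group, where it is high. Mfsd5, whose human counterpart is a molybdate transporter, had 26.3, 25.4 and 29.7 CPM with MoS2 and 87.6, 78.7 and 74.5 CPM with PBS. These groups lay well apart (-1.56 ± 0.09 on the log2 scale, edgeR adjusted p = 1.3e-09). Marc2, the mitochondrial amidoxime reducing enzyme, had 42.8 ± 5.26 CPM with MoS2 and 42.6 ± 2.72 CPM with PBS (log2 fold change 0.01 ± 0.09, edgeR adjusted p = 0.92), but -0.76 and a call with library totals (edgeR adjusted p = 2.4e-06), and 0.21 and a call with the length and GC trend removed (edgeR adjusted p = 0.044). Its partners in electron transfer, Cyb5b and Cyb5r3, had log2 fold changes of 0.42 and 0.36 with TMM and -0.35 and -0.41 with library totals. Marc1 had 0 counts with MoS2 and 4 with PBS.

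Partners of NFS1 in iron-sulfur cluster assembly were examined through 16 genes, all tested. With TMM 9 rose and 2 fell, where 38.3% and 42.4% of all tested genes were called so, and library totals called 4 higher and 8 lower, against 18% and 67.7%. Iba57 is counted as lower under both scalings and enters the median, but its call is no support, for the reason given below. Their median was 0.35 on the log2 scale with TMM, against -0.08 over all tested genes. With the length and GC trend removed, 6 were called higher and 5 lower. Bola3, a late-acting assembly factor, the acyl carrier protein Ndufab1, part of the desulfurase complex, and the chaperone Hspa9 had 1.43, 1.06 and 0.66. With library totals these become 0.66, 0.29 and -0.11. Besides Iba57, the gene called lower with TMM was Nfu1, at -0.64 ± 0.10 (edgeR adjusted p = 2.8e-05), and at -1.41 with library totals. Iba57, which works late in the making of 4Fe-4S clusters, had 8, 2 and 5 counts with MoS2 and 192, 190 and 144 counts with PBS. It passed the filter through the PBS libraries alone, where it is high, so no test is given for it. Lyrm4, the subunit that stabilizes NFS1, had 0.37 with TMM and -0.40 with library totals, and Nfs1 over Lyrm4 counts was 1.61 ± 0.135 with MoS2 and 2.47 ± 0.322 with PBS.

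In the branch that MOCS3 shares with transfer RNA thiolation, the shares called with TMM were near those of the whole table. Of its 13 genes, all tested, 4 rose and 5 fell, where 38.3% and 42.4% of all tested genes did, and library totals called 0 higher and 10 lower, against 18% and 67.7%. The median was -0.11 on the log2 scale, against -0.08 over all tested genes. Ctu1, the catalytic thiolase subunit at the end of the branch, had 3.94 ± 0.947 CPM with MoS2 and 18.8 ± 1.82 CPM with PBS (log2 fold change -2.25 ± 0.16, edgeR adjusted p = 1.7e-08). Its partner Ctu2 had 0.10 ± 0.09 and was not called (edgeR adjusted p = 0.3). Elp4, of the Elongator complex that modifies the same transfer RNA position, had -1.44 ± 0.17, and Elp5 and the methyltransferase cofactor Trmt112 had 0.77 and 0.58, which become -0.00677 and -0.20 under library totals. Trmt112 also lost its call with the length and GC trend removed, at 0.0281 (edgeR adjusted p = 0.74). Without MoS2 replicate 1, 3 genes of the branch were called lower.

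Around Xdh, 12 of 18 genes of purine breakdown and salvage were tested, and their shares called with TMM were also near those of the whole table. With TMM 5 rose and 5 fell, where 38.3% and 42.4% of all tested genes did, and library totals called 3 higher and 7 lower, against 18% and 67.7%. Urah is counted as higher under both scalings and enters the median, but its call is no support, for the reason given below. The median was 0.11 on the log2 scale, against -0.08 over all tested genes. The salvage enzyme Aprt rose by 2.08 ± 0.09 on the log2 scale, and Pnp, which releases hypoxanthine and guanine, by 1.59 ± 0.13. The copy Pnp2 (16 counts with MoS2 and 24 with PBS) lies within the deposited span of Pnp on the same strand. Reads may therefore be shared or lost between Pnp and Pnp2. Nt5c2, a nucleotidase that dephosphorylates IMP and GMP, had a log2 fold change of -0.88 ± 0.09, and guanine deaminase, Gda, which makes xanthine, -1.56 ± 0.21. Urah, which acts on the product of uricase, had 1595, 1518 and 1801 counts with MoS2 and 13, 3 and 3 counts with PBS. It passed the filter through the MoS2 group, where it is high, and its fitted log2 fold change of 8.80 becomes 9.83 without PBS replicate 1, so it describes no more than a level near 0 with PBS. Uricase itself, Uox, had 3 counts in each group.

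Genes that produce or remove sulfite and sulfide around Suox were 17, of which 14 were tested. With TMM 8 rose and 3 fell, where 38.3% and 42.4% of all tested genes were called so, and library totals called 6 higher and 7 lower, against 18% and 67.7%. Tst is counted as lower under both scalings and enters the median, but its call is no support, for the reason given below. The median was 0.69 on the log2 scale, against -0.08 over all tested genes. Sqor, which oxidizes hydrogen sulfide, rose by 1.94 ± 0.08, Cth, which makes cysteine and hydrogen sulfide, by 2.37 ± 0.09, and Cycs, the cytochrome c that takes electrons from SUOX, by 2.04 ± 0.08. Got2, the aminotransferase that makes sulfinylpyruvate from cysteine sulfinate, rose by 1.04 ± 0.06 with TMM and 0.26 with library totals. Besides Tst, the genes called lower with TMM were Csad and Ado. Their log2 fold changes were -1.66 ± 0.23 and -0.88 ± 0.09 (edgeR adjusted p = 1.6e-05 and 3.8e-07). Cdo1, which forms cysteine sulfinate, had 2.86 ± 0.295 CPM with MoS2 and 0.891 ± 0.141 CPM with PBS (edgeR adjusted p = 0.00013). Tst, the mitochondrial thiosulfate sulfurtransferase, had 5, 8 and 7 counts with MoS2 and 208, 174 and 152 counts with PBS. It passed the filter through the PBS libraries alone, where it is high, so no test is given for it.

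Of 11 partners of gephyrin at inhibitory synapses, 3 were tested, and 5 had no count in any library. The receptor subunits were among those untested, with at most 10 counts in all for any of them. Those tested also serve outside the synapse. With TMM 2 rose and 0 fell, where 38.3% and 42.4% of all tested genes were called so. Library totals called 2 higher and 1 lower, against 18% and 67.7%. Gabarap, which acts in autophagy, and the adhesion protein gene Nlgn2 rose by 1.48 ± 0.07 and 1.08 ± 0.09 with TMM, and by 0.70 and 0.31 with library totals. The dynein light chain Dynll1 had -0.07 ± 0.07 and was not called (edgeR adjusted p = 0.38), though it had -0.84 and a call with library totals and -0.20 and a call with upper-quartile factors (edgeR adjusted p = 0.019).

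**Figure D5:**
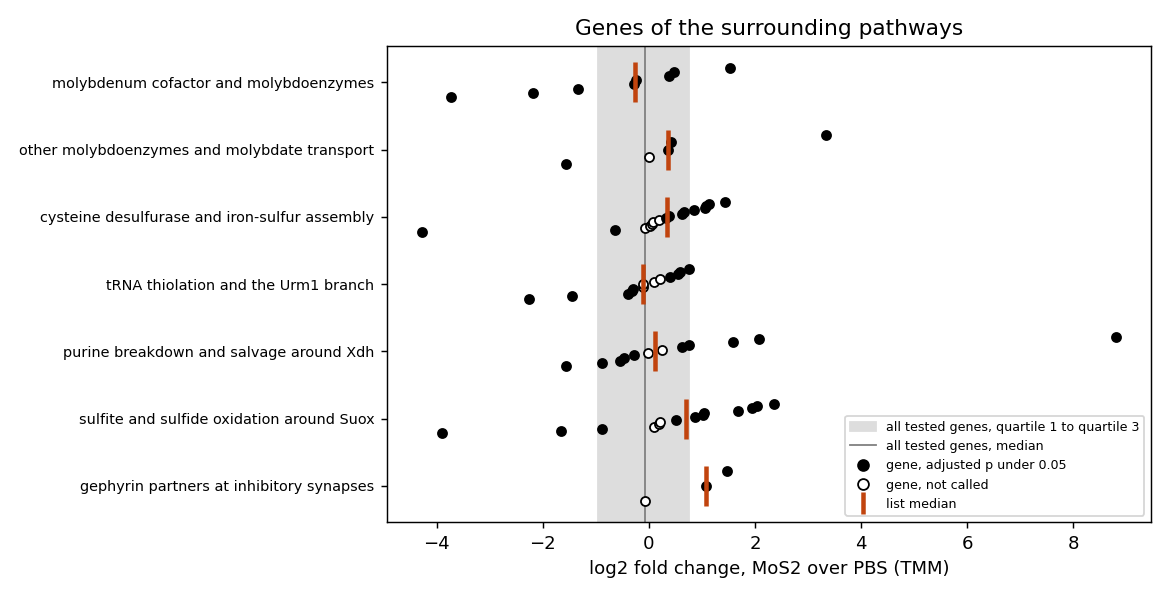
Log2 fold changes of tested genes in the molybdenum list and 6 surrounding lists, filled where called, with the list median in orange and the quartiles and median of all 12972 tested genes in grey. Mocs3 and Ctu1 lie far left of the grey band (-0.95 to 0.75). Iba57 and Tst also lie left of it, and Aox2 and Urah right, Urah at 8.80 (9.83 without PBS replicate 1). These genes passed the filter through the group where they are high, so their filled points are no test result.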

How the data were processed

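Per the labels' protocols, a NEBNext Ultra kit was used, with paired-end reads. The submitters' processing notes name fastp 0.20.0, HISAT2 2.1.0 and featureCounts 1.6.1, and the human build GRCh38. The identifiers are mouse, and 54349 of 55401 match GENCODE M21 (GRCm38) in version and coordinates, so GRCm38 is used. The deposited table holds whole-number counts per gene, not normalized. The sources used here give no multi-mapping or strand setting. Columns were matched to samples by the letter and number in their names.

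Counts of all 6 libraries were fitted with edgeR 4.0.16 (limma 3.58.1, R 4.3.3) by quasi-likelihood, with TMM factors, treatment as the only term and the default filter of about 10 counts in 3 libraries. A prior count of 0.125 entered each log2 fold change (MoS2 over PBS), whose SE is its size divided by the root of F. CPM use TMM factors and values after ± without a name are SD over 3 libraries, or SE for log2 fold changes. Members and lists were chosen with earlier results of these data known, and each list names its 4 genes with the smallest adjusted p, besides others chosen after their values were seen. Sequences are from RefSeq (GRCm38.p6) and GENCODE M21. Replicates differed by more than sampling noise (chi-square per degree of freedom 3.02 to 12.4). A few genes of these pathways are not reported here: they are in none of the lists and in none of the lists' counts.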

Additional observations from a re-analysis of the deposited data

How the results depend on the processing

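The alternatives were RLE and upper-quartile factors, library totals, no filter, a minimum of 1 CPM in 3 libraries, a replicate block, DESeq2 1.42.0, limma-voom, an adjusted p under 0.01, protein-coding genes alone, removal of each library's length and GC trend, and each library left out in turn. Mocs2, Mocs3, Xdh and Suox kept their direction and their call under all 17, with log2 fold changes of 0.75 to 1.61, -4.51 to -3.55, -2.11 to -1.14 and -2.96 to -2.05. Library totals gave 2334 genes higher and 8786 lower, 1 member higher, and reversed Gphn (-0.39) and Mocos (-0.31). They also reversed Cyb5b (-0.35), Cyb5r3 (-0.41), Marc2 (-0.76), Hspa9 (-0.11), Elp5 (-0.00677), Trmt112 (-0.20) and Dpm1 (-0.27). In the lists, library totals called 1 higher and 4 lower among other molybdoenzymes, 4 and 8 in iron-sulfur assembly, 0 and 10 in transfer RNA thiolation, 3 higher around Xdh, 7 lower around Suox and 1 lower among gephyrin partners, the last also with upper-quartile factors (1). These counts include Aox2, Iba57, Urah and Tst. Their calls are no support, since they passed the filter through the group where they are high. Marc2 was also reversed with upper-quartile factors (-0.12), without the filter (-0.0706), without MoS2 replicate 3 (-0.0783) and without PBS replicate 3 (-0.0494), with a range of -0.0783 to 0.0991 over the libraries left out, and it was called higher with the trend removed (0.21), where Trmt112 was not called (0.0281).

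Members called lower numbered 3 with RLE factors, DESeq2, the adjusted p under 0.01, protein-coding genes alone and the trend removed, because Mocs1 and Nfs1 were lost. Mocs1 had -0.24 with RLE, -0.24 with DESeq2, -0.28 at the stricter threshold, -0.24 with protein-coding genes and -0.16 with the trend removed, and Nfs1 had -0.19, -0.20, -0.24, -0.19 and -0.16. Mocos was not called with upper-quartile factors (0.34), without the filter (0.39) and at the stricter threshold (0.47). The trend removed left 6 genes of iron-sulfur assembly higher and 5 lower, and the stricter threshold left 3 of transfer RNA thiolation lower. Leaving out each library gave 3 to 5 members lower (3 without MoS2 replicate 2) and 3 to 5 lower in transfer RNA thiolation, and log2 fold changes of -0.35 to -0.21 for Mocs1, -0.29 to -0.15 for Nfs1 and 0.37 to 0.56 for Mocos. Mocs1 was lost without MoS2 replicate 2 or 3 or PBS replicate 2, Nfs1 without MoS2 replicate 1 or 2 or PBS replicate 1, and Mocos without MoS2 replicate 3 or PBS replicate 2.

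Deviations from the group means correlated across genes at -0.03, 0.01 and -0.20 for same-numbered libraries. For differently numbered libraries the correlations ranged from -0.18 to 0.21, the highest for MoS2 replicate 2 with PBS replicate 3. With 3 libraries per group such deviations are not independent, so these values cannot decide whether libraries were paired. With the replicate block 10203 genes were called, and Nfs1 had -0.23 (edgeR adjusted p = 0.053). Depth limits Aox1 and, less so, Suox and Mocs3 with MoS2.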
